A study of Homo sapiens with 8 samples.

Results

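The genes described here are 10 genes of the epithelial-mesenchymal transition (EMT): the transcription factors SNAI1, SNAI2, TWIST1, ZEB1 and ZEB2, the mesenchymal markers VIM, CDH2, FN1 and SPARC, and the epithelial splicing regulator ESRP1. They were measured by every non-control probe of the array whose gene name equals one of these symbols, which gave 15 of the 50599 probes. VIM and ESRP1 were the members called in all 3 comparisons of the histone deacetylase (HDAC) inhibitor trichostatin A (TSA) with mock treatment in DLD1 colorectal cancer cells. VIM went from not above background to a clearly measured level in all 4 TSA-treated samples, and ESRP1 fell by 1.37 on the log2 scale in control cells and by 2.13 in UHRF1-depleted cells. SNAI1 was higher in UHRF1-depleted than in control cells under TSA, while SNAI2, TWIST1, ZEB2, FN1 and SPARC did not rise well above background anywhere. With each pair of control arrays counted as 1 sample, neither the ESRP1 fall in control cells nor the SNAI1 difference was called.

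DLD1 is an established human colon adenocarcinoma line, and the study asked how depletion of UHRF1, alone or with HDAC inhibition, changes its gene expression. UHRF1 was knocked down transiently with 2 different siRNAs (siUHRF1-1 and siUHRF1-2), and a non-targeting siRNA (siCONT) served as control. After 48 h, 300 nM TSA or ethanol alone (mock) was added for the last 24 h. The 4 groups were siCONT with mock, siUHRF1 with mock, siCONT with TSA and siUHRF1 with TSA, each measured on 2 single-colour arrays. In the siUHRF1 groups the 2 arrays are the 2 siRNAs. The 2 siCONT arrays of each agent agree within about spot noise. On the scale of an SD, their difference was 1.09 times that given by repeated spots under mock and 1.195 times under TSA. For the siUHRF1 pairs it was 10.4 to 13.4 times. Each siCONT pair is therefore counted as 1 sample in means and carries no SD.

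EMT is the programme by which epithelial cells lose cell-cell junctions and apical polarity and gain migratory, fibroblast-like features. SNAI, TWIST and ZEB proteins are its best-known transcriptional drivers; the SNAI and ZEB factors bind E-boxes in the promoters of epithelial genes such as CDH1 and recruit corepressors that include histone deacetylases. ESRP1 maintains the epithelial splice forms of genes such as FGFR2 and CD44, and colorectal epithelium normally expresses it while lacking vimentin.

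Sequences are shown for VIM, the mesenchymal marker called higher with TSA, and for SPARC, one above background on no array. The VIM measurement rests on a single probe, which the array annotation places at hg19 chr10:17278347-17279256. This interval of 910 bases is longer than the probe of 60 bases, so the probe crosses a splice junction and reads spliced RNA. The promoter windows are the 250 bases before the annotated start in RefSeq (GRCh38.p14), written 5′ to 3′ on the strand of the gene, with each CG dinucleotide, the site of DNA methylation, in capitals. The VIM window is chr10:17227991-17228240 on the plus strand, and the SPARC window is chr5:151686916-151687165 on the minus strand.
VIM probe: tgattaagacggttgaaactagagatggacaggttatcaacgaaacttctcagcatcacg
VIM promoter: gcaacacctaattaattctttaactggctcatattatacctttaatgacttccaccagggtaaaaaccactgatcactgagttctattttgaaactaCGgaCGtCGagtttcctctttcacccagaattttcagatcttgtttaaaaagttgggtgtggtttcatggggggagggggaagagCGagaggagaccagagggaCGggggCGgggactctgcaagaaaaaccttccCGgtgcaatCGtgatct
SPARC promoter: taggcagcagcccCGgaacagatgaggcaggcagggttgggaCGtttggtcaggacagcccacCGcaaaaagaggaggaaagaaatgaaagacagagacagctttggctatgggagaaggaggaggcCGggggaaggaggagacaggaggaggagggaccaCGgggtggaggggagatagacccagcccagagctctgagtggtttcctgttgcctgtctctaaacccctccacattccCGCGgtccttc

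The VIM window held 8 CG dinucleotides and the SPARC window 7, against a median of 11 over 35116 windows, of which 56.3% had at least as many as VIM. The CDH2 window held 17 and the FN1 window 32. CDH2 has 2 listed starts, and the outermost was used. None of these 4 marker windows held CAGGTG or its reverse complement CACCTG, the E-box letters associated with SNAI and ZEB proteins, which 17.5% of all windows contained. RefSeq windows were matched for 6 of the 10 members. ZEB1 has 7 windows, with 7 to 27 CG dinucleotides, and 2 of the 7 held the E-box letters. These counts describe the reference sequence before the start alone, so CG dinucleotides after the start were not counted. DNA methylation was not measured on these arrays.

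Between 43.3% and 48.0% of probes were well above background on each array, and UHRF1 RNA was 11.1% to 31.9% of the siCONT mean with the same agent by the UHRF1 probe above background on all arrays. All 8 arrays were on 1 slide, with mock in the first row and TSA in the second, so slide row and TSA cannot be told apart. All 9 colon epithelial markers (CDH1, EPCAM, KRT8, KRT18, KRT19, KRT20, CDX2, VIL1 and LGALS4) were well above background on all 8 arrays, as the DLD1 label implies. Of 3 blood markers, CD68 was above background on all 8 arrays and PTPRC and CD3E on none. Of 3 endothelial markers, VWF and CDH5 were above background on 6 arrays and PECAM1 on none. Of 7 fibroblast markers, COL1A1 was above background on 4 arrays, PDGFRB on 3, THY1 on 2, DCN and LUM on 1 each, and COL1A2 and COL3A1 on none.

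A level below is the log2 of a probe's processed signal over the 75th percentile of its array, so levels of different probes are not comparable. Well above background is the flag set by the scanner software. Of the 15 member probes, 2 were well above background on all 8 arrays (SNAI1 and ESRP1), 4 on some arrays (1 of ZEB1, 1 of VIM and 2 of CDH2) and 9 on none, so 5 of the 10 genes had no probe above background. VIM, CDH2 and the ZEB1 probe were detected in treated groups and on no siCONT mock array, so they entered the tests only through the groups where they were high.

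**Figure D1:**
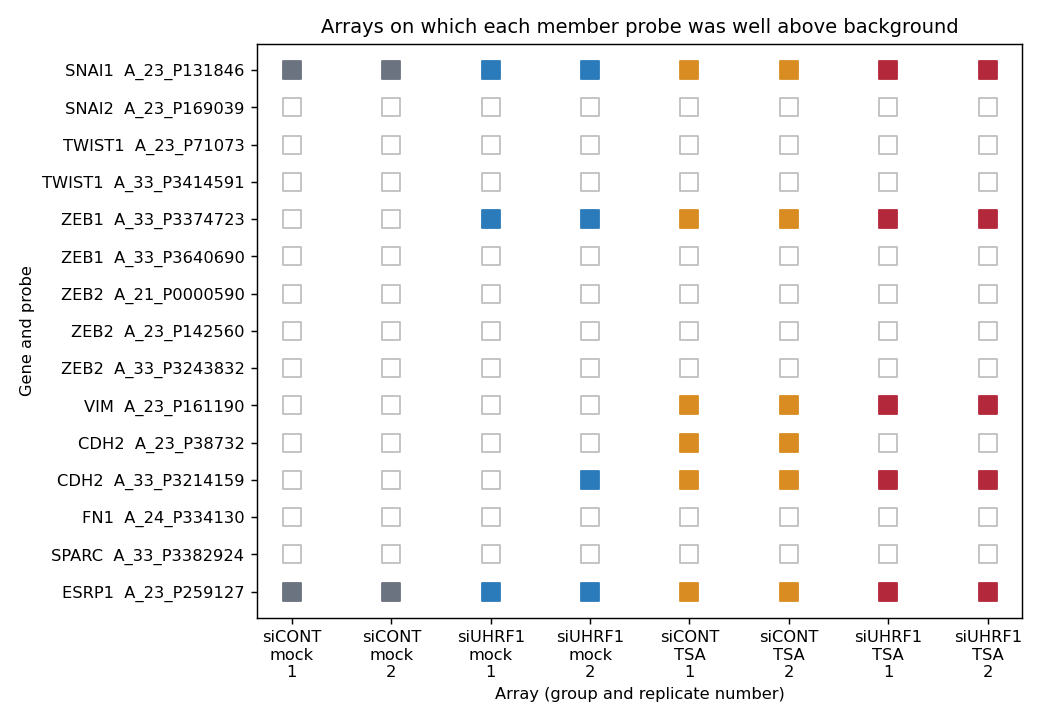
Detection of the 15 member probes (rows) on the 8 arrays (columns, by group and replicate number); a filled square marks an array on which the probe was well above background. SNAI1 and ESRP1 are filled in all 8 columns, VIM in the 4 TSA columns, and 9 probes in none.

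A change was called at a Benjamini-Hochberg adjusted p under 0.05 over all probes tested and at least 2-fold, by limma. Depletion of UHRF1 under mock called 0 of the 3 member probes tested, when 4.11% of all tested probes were called. At an unadjusted p under 0.05 and 2-fold by limma, 1 member passed (ZEB1), and the methods' t-test called 0. Of all probes, 1567 of 22391 passed the first of these rules and 754 of 22383 the second. TSA in siCONT cells called 4 of 6 member probes, 2 higher (VIM, ZEB1) and 2 lower (SNAI1, ESRP1). The ZEB1 call used a fitted change against a group below background. Measured from the background floor it was at least 1.87-fold, short of 2-fold. VIM, ZEB1 and CDH2 entered this test only through the TSA arrays, so the filter favours higher calls among the 6. Over all tested probes 18.6% were called, 10.4% higher and 8.21% lower. Depletion plus TSA against siCONT with mock called 4 of 5, 3 higher (VIM, ZEB1, SNAI1) and 1 lower (ESRP1), when 25.6% of all probes were called, 14.5% higher and 11.1% lower.

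Depletion of UHRF1 under TSA called 1 of 6 member probes, SNAI1, which was higher, against 8.26% of all probes called and 5.39% called higher. TSA in UHRF1-depleted cells called 2 of 5, VIM higher and ESRP1 lower, against 20.7% of all probes called, 11.7% higher and 9.01% lower. The interaction, the effect of depletion under TSA minus that under mock, was called for 1 of 6 probes, SNAI1, with a positive sign, against 4.89% of all probes called and 2.83% with a positive sign. SNAI1 and ESRP1 alone among the 6 were above background in every group, so the interaction is described for these. The comparisons with siCONT mock share that control group. Over all 15 member probes with no filter on dim probes, the median change was 0.19 for TSA in siCONT cells and -0.15 for depletion plus TSA, against -0.33 and -0.17 over all probes. The balance of directions over all probes depends on scaling. Of the calls in depletion plus TSA 56.8% were higher, against 31.6% with median scaling and 72.0% with the percentile taken over detected probes. The share was 65.2%, 29.1% and 75.5% in the same order for depletion under TSA, 56.5%, 30.1% and 68.2% for TSA in depleted cells, and 55.8%, 52.3% and 66.2% for TSA in siCONT cells. For the interaction it was 57.8%, against 24.2% with median scaling. Median scaling moved every change by -0.40 in depletion plus TSA, and no called member change turned sign under any scaling.

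Counting each siCONT pair as 1 sample in the fit left fewer calls. VIM and ESRP1 were still called in depletion plus TSA (15.4% of all probes called) and in TSA in depleted cells (17.6%), and VIM alone in TSA in siCONT cells (1.56%). No member was called for depletion under TSA (0.692% of all probes), for depletion under mock (0.0223%) or for the interaction (0%). By limma, 1 member passed an unadjusted p under 0.05 and 2-fold in each of these last comparisons, namely SNAI1 under TSA and in the interaction and ZEB1 under mock, and over all probes 2118 passed it for the interaction.

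**Figure D2:**
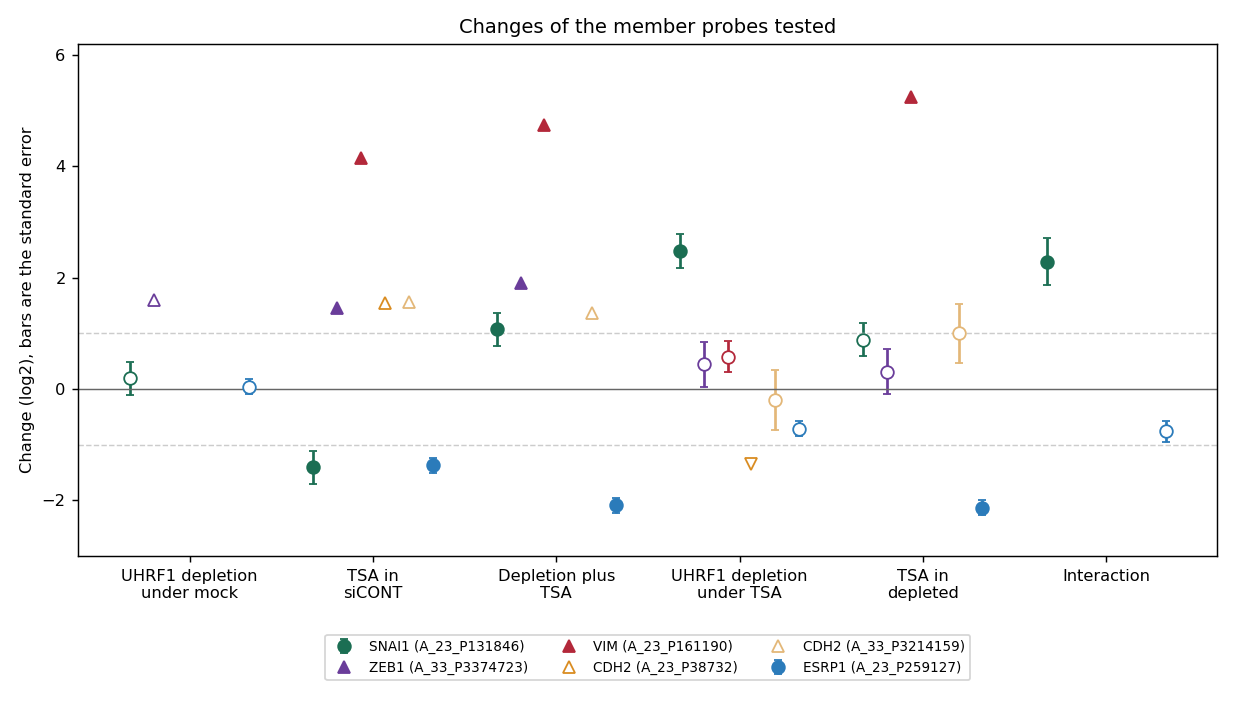
Change (log2) of each member probe tested in the 5 pairwise comparisons and the interaction, with the limma standard error; filled points were called, dashed lines mark 2-fold. Triangles, drawn with no error, are changes against a group below background and have no exact size, and the interaction is drawn only for probes above background in every group. VIM is a filled triangle in the 3 comparisons that contrast TSA with mock, ESRP1 lies below -1 in the same 3, and SNAI1 changes sign between TSA in siCONT and depletion plus TSA.

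SNAI1, the founding EMT repressor of CDH1, was detected on all 8 arrays by 1 probe (hg19 chr20:48605170-48605229). Its level was -1.71 and -1.56 in the siCONT mock arrays and -1.196 and -1.70 in siUHRF1-1 and siUHRF1-2 with mock. With TSA it was -2.86 and -3.22 in siCONT and -0.19 and -0.94 in siUHRF1-1 and siUHRF1-2. The siCONT TSA arrays were thus the lowest and the siUHRF1 TSA arrays the highest of the 8, and these groups did not overlap with each other or with the mock groups. TSA in siCONT cells changed SNAI1 by -1.41 (SE 0.30, adjusted p = 0.0135), whereas UHRF1 depletion under TSA was 2.48 higher (SE 0.30, adjusted p = 0.00681), which is 7.24-fold for siUHRF1-1 and 4.31-fold for siUHRF1-2 over the siCONT TSA mean.

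Relative to siCONT with mock, depletion plus TSA raised SNAI1 by 1.08 (SE 0.30, adjusted p = 0.0271), just past 2-fold. Depletion under mock differed by 0.19, with a 95% interval of -0.53 to 0.92. TSA within depleted cells gave 0.88 (SE 0.30, adjusted p = 0.0585), which did not pass. The interaction for SNAI1 was 2.29 (SE 0.42, adjusted p = 0.0381). With each siCONT pair as 1 sample the adjusted p-values were 0.205 for TSA in siCONT cells, 0.153 for depletion plus TSA, 0.0978 for depletion under TSA and 0.434 for the interaction, so no SNAI1 call held. Under median scaling the SNAI1 change in depletion plus TSA was 0.67, and leaving out any siCONT array or siUHRF1-1 with TSA ended the interaction call (adjusted p 0.0589 to 0.144).

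ZEB1, an E-box repressor of epithelial genes and of ESRP1, was seen by 1 of its 2 probes (hg19 chr10:31818063-31818122). That probe was at -4.38 and -3.54 in siCONT mock, where it was not well above background, and at -2.87 and -1.86 in siUHRF1-1 and siUHRF1-2 with mock. With TSA it was at -2.71 and -2.28 in siCONT and -2.03 and -2.08 in siUHRF1-1 and siUHRF1-2. All 6 treated arrays were above background and above both siCONT mock arrays, and the range of the siUHRF1 mock arrays spanned all 4 TSA arrays, while both siUHRF1 TSA arrays were above both siCONT TSA arrays. ZEB1 was at least 2.54-fold higher in depletion plus TSA (adjusted p = 0.011) and at least 1.87-fold higher in TSA in siCONT cells (adjusted p = 0.033).

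For depletion under mock ZEB1 was at least 2.04-fold higher, but its adjusted p of 0.0645 did not pass. Between the treated groups the ZEB1 change was 0.44 for depletion under TSA (95% interval -0.55 to 1.44) and 0.31 for TSA in depleted cells (-0.68 to 1.31). The second ZEB1 probe (hg19 chr10:31816261-31816320), for the same transcript, was above background on no array, so the probes disagree on detection. With each siCONT pair as 1 sample the adjusted p-values were 0.0511 and 0.218, and neither ZEB1 call held. With normexp background correction, which compresses dim probes, the changes were 0.36 and 0.18.

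The other 3 EMT transcription factors were below background throughout. SNAI2, a relative of SNAI1, stayed between -6.14 and -5.70 on the 8 arrays. TWIST1, a basic helix-loop-helix factor of mesoderm, lay between -5.79 and -4.17 by one probe and between -5.87 and -4.54 by the other. ZEB2, the paralogue of ZEB1, lay between -5.92 and -4.23 by all 3 probes, 1 of which reads a non-coding transcript variant. At these levels changes of SNAI2, TWIST1 and ZEB2 were not detectable, which does not show that the genes were silent.

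VIM encodes vimentin, the intermediate filament protein of mesenchymal cells. Its level was -3.45 and -4.01 in siCONT mock and -3.93 and -4.54 in siUHRF1-1 and siUHRF1-2 with mock, and it was not well above background on any of these 4 arrays. With TSA it was 0.41 and 0.45 in siCONT, and 0.81 and 1.21 in siUHRF1-1 and siUHRF1-2, well above background on all 4. No mock array came within the range of the TSA arrays. VIM was at least 14.1-fold higher with TSA in siCONT cells (adjusted p = 0.00045), at least 21.2-fold higher in depletion plus TSA (adjusted p = 0.000156) and at least 24.4-fold higher with TSA in depleted cells (adjusted p = 0.000159).

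UHRF1 depletion under TSA changed VIM by 0.58 (SE 0.28, adjusted p = 0.196, 95% interval -0.09 to 1.26), which did not pass, although both siUHRF1 arrays were above both siCONT arrays. Depletion under mock, and with it the interaction, has no measured value for VIM because both mock groups were below background. The 3 VIM calls held with each siCONT pair as 1 sample, with adjusted p-values of 0.0359, 0.00583 and 0.0022, and in all 18 alternative settings run for each. With normexp background the changes were 1.95, 2.43 and 2.65.

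**Figure D3:**
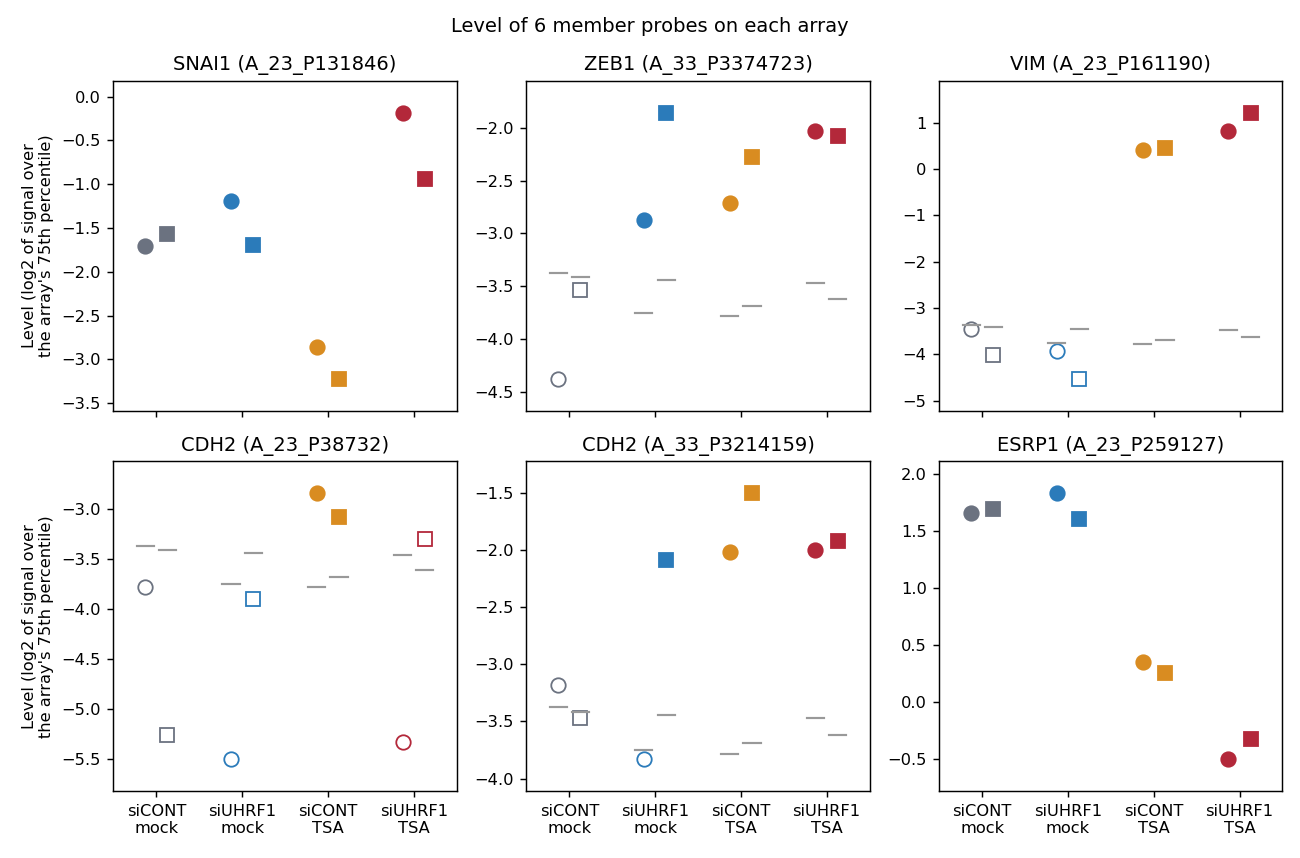
Levels of the 6 member probes detected on at least 1 array, by group; circles and squares are replicate 1 and 2 (siUHRF1-1 and siUHRF1-2 in the siUHRF1 groups), filled where well above background, and grey ticks give the lowest level well above background on that array. VIM lies between 0.41 and 1.21 with TSA and between -4.54 and -3.45 with mock, and ESRP1 between -0.51 and 0.35 with TSA and between 1.61 and 1.83 with mock.

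The 9 colon epithelial markers had a summed linear level of 1898 to 1928 in siCONT mock and 1745 to 2045 in siUHRF1 TSA. TSA in siCONT cells called 2 of the 9, both lower (LGALS4, -3.57, and VIL1, -1.42), against 18.6% of all probes. Depletion plus TSA called 1 lower (LGALS4, -1.96) and 1 higher (KRT20, 1.56), against 25.6%. TSA in depleted cells called 3, all lower (LGALS4, -5.06, VIL1, -2.50, and KRT20, -1.37), against 20.7%. Some markers of other cell types were, like VIM, higher with TSA. Of the 7 fibroblast markers 0 were above background on both arrays in siCONT mock, 1 (PDGFRB) in siUHRF1 mock, 1 (COL1A1) in siCONT TSA and 2 (COL1A1 and THY1) in siUHRF1 TSA. The summed linear level of the 7, in units of the array's 75th percentile, was 0.244 to 0.283 in siCONT mock, 0.254 to 0.35 in siUHRF1 mock, 0.513 to 0.64 in siCONT TSA and 0.973 to 1.64 in siUHRF1 TSA. Such a sum is weighted to its brightest probes and includes probes below background. PDGFRB went the other way with TSA in depleted cells, at least 1.97-fold lower, which did not pass (adjusted p = 0.0727). The 3 endothelial markers summed to 0.147 to 0.175 in siCONT mock, 0.373 to 0.515 in siUHRF1 mock, 0.945 to 0.964 in siCONT TSA and 1.59 to 1.71 in siUHRF1 TSA. In siUHRF1 TSA the mean levels were 0.51 for VWF, -2.94 for CDH5 and -3.44 for PECAM1, so the sum was mostly VWF. CDH5 was not called in depletion plus TSA, and PECAM1 was not tested. VWF, the endothelial von Willebrand factor, was at least 15.0-fold higher in depletion plus TSA (adjusted p = 0.000125) and already at least 3.20-fold higher with depletion under mock (adjusted p = 0.00743), where VIM was not above background. With each siCONT pair as 1 sample the VWF call held in depletion plus TSA (adjusted p = 0.00565) but not in depletion under mock (0.14). The 3 blood markers summed to 0.342 to 0.363 in siCONT mock, 0.259 to 0.537 in siUHRF1 mock, 0.492 to 0.585 in siCONT TSA and 0.376 to 1.27 in siUHRF1 TSA. Only CD68 among them was above background, and its change in depletion plus TSA was not called (1.51, adjusted p = 0.122). The part of other cell types in the VIM change was not tested, and in a bulk culture more cells of a type and more RNA per cell cannot be told apart.

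CDH2 encodes N-cadherin, the cadherin that replaces E-cadherin in the classical switch of EMT, and none of its changes was called. Its probe A_33_P3214159 (hg19 chr18:25530936-25530995) was at -3.18 and -3.47 in siCONT mock and -3.83 and -2.09 in siUHRF1-1 and siUHRF1-2 with mock, above background only in the last of these. With TSA it was at -2.02 and -1.51 in siCONT and -1.997 and -1.92 in siUHRF1-1 and siUHRF1-2, above background on all 4 arrays. All TSA arrays were above the siCONT mock arrays and the siUHRF1-1 mock array, with siUHRF1-2 mock just below them. The bound was at least 2.90-fold higher with TSA in siCONT cells (adjusted p = 0.0597) and at least 2.53-fold higher in depletion plus TSA (adjusted p = 0.0787). Leaving out either siUHRF1 mock array turned both into calls for this CDH2 probe. Those arrays enter neither comparison, so the changes stayed the same. Only the spread of that pair (SD 1.23) left the shared estimate.

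The other CDH2 probe, A_23_P38732 (hg19 chr18:25532081-25532140) was above background on the 2 siCONT TSA arrays alone, at -2.85 and -3.09. On the siUHRF1-1 and siUHRF1-2 arrays with TSA it was at -5.33 and -3.31. For TSA in siCONT cells its bound was at least 1.35-fold higher (adjusted p = 0.189), and the CDH2 probes disagree on whether N-cadherin RNA was detected in depleted cells with TSA. FN1, the matrix glycoprotein fibronectin, was read by 1 probe, which the annotation ties to transcript variant 7 (hg19 chr2:216288217-216288895). It stayed between -6.10 and -3.46, above background nowhere. SPARC, the matrix protein osteonectin, lay between -5.78 and -3.53 and was likewise not detected. This does not show that FN1 and SPARC were silent, and whether the FN1 probe reads other FN1 transcript variants was not tested.

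ESRP1, of the 2 members detected on all 8 arrays, was the one called in all 3 comparisons that contrast TSA with mock. It was at 1.66 and 1.69 in siCONT mock and at 1.83 and 1.61 in siUHRF1-1 and siUHRF1-2 with mock. With TSA it was at 0.35 and 0.25 in siCONT and at -0.51 and -0.32 in siUHRF1-1 and siUHRF1-2. The mock groups overlapped each other, the TSA groups lay below both, and the siUHRF1 TSA arrays lay below the siCONT TSA arrays. ESRP1 fell 2.59-fold with TSA in siCONT cells (log2 change -1.37, SE 0.14, adjusted p = 0.00123), 4.25-fold in depletion plus TSA (-2.09, SE 0.14, adjusted p = 0.000202) and 4.39-fold with TSA in depleted cells (-2.13, SE 0.14, adjusted p = 0.000243).

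UHRF1 depletion under mock left ESRP1 at a difference of 0.05 (95% interval -0.28 to 0.37). Under TSA the difference was -0.72 (SE 0.14, adjusted p = 0.0207), which is 1.64-fold and so was not called, and the interaction was -0.76 (SE 0.19, adjusted p = 0.0691). With each siCONT pair as 1 sample the ESRP1 fall held in depletion plus TSA (adjusted p = 0.0127) and in TSA in depleted cells (0.0057), but not in TSA in siCONT cells (0.108). ESRP2, its paralogue, which also maintains epithelial splicing, changed by -0.07 in depletion plus TSA (adjusted p = 0.863).

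Around the members, 6 lists of other EMT genes were described by the brightest probe of each gene in depletion plus TSA, where 25.6% of all probes were called and the median change was -0.14. Of 10 other EMT-linked transcription factors 5 were tested, of which 2 rose and 0 fell, with a median of 0.24 (-0.16 with median scaling, where TCF4 rose and TCF3 fell). These were TCF4, an E-protein (2.65, SE 0.16, adjusted p = 0.000173), and KLF8, a zinc finger factor (1.26, SE 0.36, adjusted p = 0.0305). Depletion under mock called 3 of 6 tested genes of this list higher and 0 lower, against 4.11% of all probes called. Among them were TCF4 (1.35, adjusted p = 0.0119) and KLF8 (2.01, adjusted p = 0.0306). With each siCONT pair as 1 sample, depletion under mock called 0 genes of this list. Of 34 other mesenchymal matrix, cytoskeleton and surface genes 19 were tested, of which 8 rose, 4 fell and 7 did not pass, with a median of 0.72 (0.32 with median scaling, where 7 rose, and 0.96 over detected probes, where 2 fell).

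Of the 8 that rose, COL1A1, COL5A2, SPOCK1 and THY1 were above background on no siCONT mock array and entered the test only through the treated group. The 4 named by the largest fitted change, which gives no order against a group below background, were COL1A1, a chain of type I collagen, at least 6.66-fold higher, COL6A1, a chain of type VI collagen, higher by 3.85 (SE 0.47; above background on 1 of 2 siCONT mock arrays), SPOCK1, a proteoglycan, at least 2.76-fold higher, and THY1, a fibroblast surface protein, at least 3.15-fold higher. Their adjusted p-values were 0.00108, 0.0014, 0.00228 and 0.000905. THY1 was above background in siUHRF1 TSA alone, so its interaction, which passed the test, has no measured size. S100A4, a calcium-binding protein above background on all 8 arrays, rose by 2.52 (SE 0.22, adjusted p = 0.000498) and had a called interaction of -2.40 (adjusted p = 0.0216). S100A4 was higher by 3.83 with depletion under mock (adjusted p = 0.00257), and TSA in depleted cells changed it by -1.31 (adjusted p = 0.00581). With each siCONT pair as 1 sample the S100A4 calls under mock (adjusted p = 0.0727) and in the interaction (0.347) did not hold. Nor did the THY1 interaction (0.2). COL1A1 and THY1 are also among the fibroblast markers above.

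Most epithelial genes were not called. Of 31 epithelial adhesion, keratin and splicing genes, all tested, 0 rose and 3 fell, with a median of -0.15, which was -0.55 with median scaling (9 fell) and 0.09 over detected probes (3 fell). The 3 were LLGL2, a polarity protein (-1.66, adjusted p = 0.00147), PRSS8, a membrane protease (-1.40, adjusted p = 0.0046), and PKP3, a desmosomal plakophilin (-1.34, adjusted p = 0.00131). CDH1 changed by 0.16 (adjusted p = 0.31). Of 12 epithelial transcription factors 0 rose and 2 fell, OVOL1 (-2.16, adjusted p = 0.0197) and EHF (-1.94, adjusted p = 0.000594), with a median of -0.10 (-0.50 with median scaling and 0.14 over detected probes). The interaction was called for FOXA2 (2.39, adjusted p = 0.0054) and KLF4 (-1.04, adjusted p = 0.0394). With each siCONT pair as 1 sample neither interaction held (adjusted p = 0.234 and 0.554).

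Of 12 TGF-beta inputs, the ligands, receptors and SMAD proteins that signal to EMT factors, 1 rose, TGFB2, at least 1.68-fold (adjusted p = 0.00947), and 0 fell, with a median of -0.12 (0.12 over detected probes). The TGFB2 call used the fitted log2 change of 2.11 against a group below background, and its bound lies under 2-fold. TGFB1 had a called interaction of 1.41 (adjusted p = 0.0261), which did not hold with each siCONT pair as 1 sample (0.463). Of 13 corepressor partners of SNAI and ZEB proteins 0 rose and 4 fell, with a median of -0.68 (7 fell with median scaling and 2 over detected probes). These were the histone methyltransferases SUV39H1 (-2.17, adjusted p = 0.000487) and EHMT2 (-1.54, adjusted p = 0.000314), the Polycomb subunit SUZ12 (-1.29, adjusted p = 0.031) and the scaffold SIN3A (-1.005, adjusted p = 0.0015). With each siCONT pair as 1 sample the counts called were 1, 8, 2, 1, 0 and 2 for the 6 lists in the order given.

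**Figure D4:**
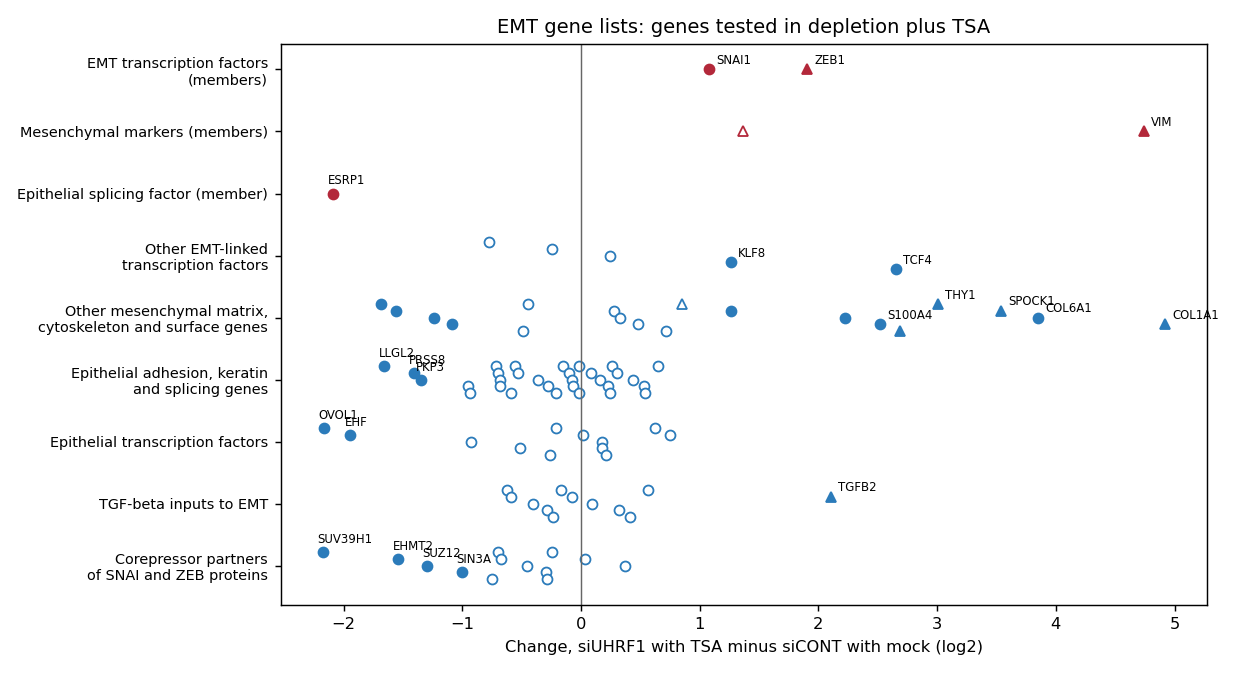
Change (log2) of siUHRF1 with TSA over siCONT with mock for each tested gene of the member groups (red) and of 6 other EMT lists (blue); each point is the brightest probe of 1 gene, filled where called. Triangles mark genes above background on no siCONT mock array, VIM and COL1A1 among them, whose position has no exact size and gives no order; ESRP1 at -2.09 lies among the farthest left.

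Other genes followed the pattern of each member. Likeness is the root-mean-square difference of centred levels over the 8 arrays, among probes above background on the same number of arrays in each group. The nearest to SNAI1 were LHX6 (0.252), GOLGA6L7P (0.26) and PGF (0.349). The nearest to ZEB1 were ANKRD2 (0.204), HECTD2 (0.22) and NCOA5 (0.292). VIM was most like C3 (0.393), ARMH4 (0.396) and SPANXN3 (0.413), and ESRP1 most like ERBB3 (0.107), TRAPPC13 (0.11) and NHERF2 (0.118). For CDH2 the nearest were FECH (0.264), GTF2IRD2 (0.299) and IL6ST (0.329) by probe A_33_P3214159, and CMKLR2 (0.637), VANGL2 (0.65) and RECK (0.656) by the other.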

How the data were processed

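RNA of DLD1 cells was hybridised with Cy3 to Agilent SurePrint G3 Human GE arrays (8 arrays, 4 groups of 2). The authors scanned the arrays and deposited Agilent Feature Extraction 10.7 files, whose intensity columns hold background-subtracted processed signals per spot, with flags (other) for spots well above background, and a value table, which the file values show to be the same signal intensity rounded. The normalization used by the authors was not given in the sources used here.

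Control spots and outlier spots were left out, spots of a probe were averaged, and log2 of the deposited intensity minus the log2 of the array's 75th percentile was fitted with 4 group means over the 8 arrays by limma 3.58.1 (R 4.3.3; moderated by eBayes, 4 residual and 2.17 prior degrees of freedom). Testing a probe required both arrays of a compared group to be well above background. Calls needed an adjusted p under 0.05 over all probes tested and 2-fold. A bound compares the mean of the brighter group with the mean, over the dim arrays, of the higher of the probe's own level and the lowest level well above background on that array. It is a point estimate without sampling error. Changes on dim probes are not bounds.

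The script was tested on simulated data. Genes were named by array symbol, and list genes by RefSeq accession or symbol, with 131 of 131 found and 55.7% of probes matched. Every member probe is named; of each other list, up to 4 called genes with the largest change in depletion plus TSA and up to 2 with the largest called interaction. Members and lists were chosen with earlier results of these data known. The labels do not say that siCONT arrays come from separate cultures, so p-values may measure technical spread. The number of arrays, 2 per group, limits the precision. Alternatives were normexp background (offset 50), quantile, median and detected-probe scaling, the value table, other filters, no minimum fold, siCONT pairs as 1 sample, the replicate number as a block, the methods' t-test and leaving out each array.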

Additional observations from a re-analysis of the deposited data

Results flagged for a closer look

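SNAI1 is the member whose response to UHRF1 depletion differed between the agents. Depletion changed SNAI1 by 0.19 under mock and by 2.48 under TSA, an interaction of 2.29 (limma, adjusted p = 0.0381). The adjusted p was 0.025 to 0.434 over 18 alternatives, of which 10 kept the call. The highest came with each siCONT pair as 1 sample, the way the pairs are counted in means. In that fit 0 of 24582 probes had a called interaction. The differences were 0.44 and -0.06 for siUHRF1-1 and siUHRF1-2 under mock, and 2.86 and 2.11 under TSA. The sign was the same under each alternative, and its cause was not tested.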

How the results depend on the processing

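VIM and ESRP1 kept their direction in every alternative for TSA in siCONT cells, depletion plus TSA and TSA in depleted cells. For TSA in siCONT cells 4 member probes were called, against 2 with normexp background, 2 when all arrays had to be above background and 1 with siCONT pairs as 1 sample. For depletion plus TSA the 4 became 2 under the same 3 alternatives. For depletion under TSA the 1 became 2 with median scaling or no minimum fold (ESRP1 joined), and 0 with siCONT pairs as 1 sample. For TSA in depleted cells the 2 became 1 when all arrays had to be above background, because VIM was then not tested. For the interaction the 1 became 0 with median scaling, no filter on dim probes or siCONT pairs as 1 sample. Leaving out 1 array gave 0 to 2 calls for depletion under mock, 2 to 5 for TSA in siCONT cells, 2 to 5 for depletion plus TSA, 0 to 1 for depletion under TSA, 2 to 3 for TSA in depleted cells and 0 to 1 for the interaction. The calls lost were those of SNAI1 and ZEB1. For TSA in siCONT cells SNAI1 was lost without either siCONT mock array or the second siCONT TSA array (adjusted p 0.0599 to 0.0869), and ZEB1 without the first siCONT mock array or any TSA array (0.0585 to 0.16). For depletion plus TSA SNAI1 was lost without either siCONT mock array or siUHRF1-1 with TSA (0.086 to 0.119), and ZEB1 without the first siCONT mock array or either siUHRF1 TSA array (0.0501 to 0.0604). For depletion under TSA SNAI1 was lost without the second siCONT TSA array (0.0502). Calls were also gained: ZEB1 and CDH2 for depletion under mock without siUHRF1-1 with mock (0.0287 and 0.035), CDH2 for TSA in depleted cells without siUHRF1-2 with mock (0.006) and SNAI1 for TSA in depleted cells without siUHRF1-2 with TSA (0.0259). Causes not shown by an alternative's construction were not tested.

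With the replicate number as a block, 1 member was called for depletion under mock (ZEB1, adjusted p = 0.0441) in place of 0, and no other member count changed. Deviations of same-numbered arrays correlated between -0.06 and 0.34 over the pairs of groups, the highest for the siUHRF1 groups, so the numbers do not pair all samples. The methods' t-test at their threshold called 0, 4, 4, 1 and 2 members in the 5 pairwise comparisons, and 0, 3, 2, 0 and 0 after Benjamini-Hochberg adjustment. Of all tested probes it called 3.37%, 18.1%, 21.4%, 7.81% and 13.7% at that threshold. After adjustment 0, 3811, 2714, 0 and 0 probes were left, so where no probe was left the member counts say nothing about the members.

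A few uncalled changes turned sign. Leaving out 1 array, the change ranged from -0.060 to 0.44 for SNAI1 and from -0.067 to 0.16 for ESRP1 in depletion under mock, both lowest without siUHRF1-1 with mock, and from -0.19 to 0.82 for ZEB1 in TSA in depleted cells. For CDH2, whose mock arrays were mostly below background, probe A_33_P3214159 ranged from -0.45 to 0.061 in depletion under TSA and from -1.43 to 0.31 in the interaction. Median scaling gave -0.076 for ZEB1 in TSA in depleted cells, and normexp background gave 0.060 for the interaction of CDH2 probe A_23_P38732.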
